A study of Mus musculus with 10 samples.

Results

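The 9 genes taken as targets of NRF2 in brown adipose tissue, the heat-producing fat of rodents, were Nqo1, Hmox1, Srxn1, Gclc, Gclm, Gsr, Txnrd1, Slc7a11 and Prdx1. Every probe set that the platform annotation gives to 1 of these genes alone was used, which left 17 of 45037 probe sets, for 8 of the 9 genes. All 5 probe sets of Prdx1, a peroxiredoxin, are given to a second gene as well, so Prdx1 is not analysed here.

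The tissue came from 10 untreated littermate mice aged about 1 year on a 129 background, 5 of them wild type (WT) and 5 labelled SIRT3 knockout (KO), after a mitochondrial deacetylase. Each mouse was read on 1 Affymetrix array, and values are log2 signals made by the authors with RMA, which removes background, gives the arrays a common distribution and joins the probes of a transcript into 1 value. The sources used here do not say which part of Sirt3 was deleted or in which cells. The comparison asks which NRF2 target transcripts differ between the genotypes.

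NRF2, encoded by Nfe2l2, is the main transcriptional activator of the response to oxidants and electrophiles. In unstressed cells KEAP1 holds it in the cytosol and brings it to a CUL3 ubiquitin ligase for destruction. When KEAP1 is modified, NRF2 enters the nucleus, pairs with a small MAF protein and binds antioxidant response elements near genes that make glutathione, recharge thioredoxin, break down heme and detoxify quinones. BACH1 is a repressor that competes for the same elements, best known at Hmox1.

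The core of the antioxidant response element is written TGACNNNGC. It was searched on both strands in RefSeq promoter windows of assembly GRCm38.p6, which run from 250 bases before to 50 bases after a transcript start. Windows were matched by symbol for 6 of the 9 genes: Nqo1, Srxn1, Gclm, Txnrd1, Slc7a11 and Prdx1. At least 1 window held the core for 4 of these 6 genes (Srxn1, Gclm, Txnrd1 and Prdx1), against 14.0% of all 27025 genes with a window. The related motif TGAGTCA, known as a site of AP-1 and of NF-E2 family factors, was found for 2 of the 6 (Srxn1 and Prdx1), against 5.95% of all genes. The motifs can overlap, since TGACTCA, the reverse complement of TGAGTCA, begins like the core. A match describes letters and is not evidence of binding.

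The upstream bases of Srxn1 are shown because that gene had the smallest p among the members, and those of Gclm and Txnrd1 because their cores lie upstream of the start. Capitals mark TGAGTCA in Srxn1, at 102 and 45 bases before the start, and the core in the others, where it lies on the opposite strand and reads GCNNNGTCA. The Srxn1 sequence is chr2:152105374-152105523, that of Gclm is chr3:122245403-122245451 and that of Txnrd1 is chr10:82859094-82859142, all on the plus strand.
Srxn1: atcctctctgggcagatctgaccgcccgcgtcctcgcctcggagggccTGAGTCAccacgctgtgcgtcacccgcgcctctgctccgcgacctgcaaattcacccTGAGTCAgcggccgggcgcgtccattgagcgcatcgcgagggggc
Gclm: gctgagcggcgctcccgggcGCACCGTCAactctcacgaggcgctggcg
Txnrd1: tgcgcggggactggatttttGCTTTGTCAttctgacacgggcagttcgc

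The arrays resembled each other, with pairwise correlations over probe sets from 0.988 to 0.997. The 10 measured brown adipocyte markers had mean signals from 7.94 to 14.51, and Ucp1, the uncoupling protein, lay between 13.96 and 14.28. Of these 10, 8 were on average lower in KO arrays, with a median difference of -0.065. An unadjusted p under 0.05 was found for 1 of the 10 (10%), where the share over all genes was 4.60%. This was Adipoq, which encodes adiponectin, named for that p, at -0.14 ± 0.061. Elovl3, a fatty acid elongase, differed by -0.63 ± 0.34 and lay between 9.42 and 11.55. Dio2, the deiodinase that activates thyroid hormone, was 11.20 and 11.32 in WT 4 and WT 5 and 8.65 to 9.95 in the other 8 arrays. The Sirt3 probe set was not lower in arrays labelled KO, at 10.32 ± 0.07 against 10.13 ± 0.10 in WT (SD, n = 5 each). It was higher on average by 0.19 ± 0.063 (interval 0.05 to 0.33; unadjusted p of limma 0.0108, adjusted 0.896), with all 5 KO values above the WT mean. The labels are thus not borne out by it, but a probe set outside the deleted part would not show the deletion. Groups below are therefore arrays labelled KO and WT. The mean of 19 skeletal muscle transcripts ranged from 7.46 to 11.45 over WT arrays and from 5.42 to 10.77 over KO arrays; it was lowest in KO 3 (5.42), KO 1 (5.63) and WT 5 (7.46). All 19 were on average lower in KO arrays, with a median difference of -1.61 log2 units. However, 0 of them had an unadjusted p under 0.05, where the share over all genes was 4.60%. Of 14 immediate early and heat shock transcripts 13 were on average higher in KO arrays, with a median difference of 0.36. Of these 14, 0 passed the test and 3 had an unadjusted p under 0.05, where the share over all genes was 4.60%: Atf3, Fosb and Ier3. Fosb, an AP-1 subunit, differed by 2.14 ± 0.92, with WT arrays from 3.63 to 9.16 and KO arrays from 6.25 to 9.11, and Ier3 by 0.42 ± 0.18. The part of these lists in the results below was not tested except where a value is given. In bulk tissue, fewer cells of a type and less RNA per cell cannot be told apart.

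None of the 17 probe sets passed the test between the groups. By limma with Benjamini-Hochberg adjustment over all 45037 probe sets, 0 of the 17 had an adjusted p under 0.05, where the share over the whole table was 0%. Their adjusted p ran from 0.896 to 0.998. At an unadjusted p under 0.05 there was 1 of 17 (5.88%), a probe set of Srxn1, where the share over all probe sets was 5.43%. KO arrays did not lie wholly above or below WT arrays in any of the 17, where 0.711% of all probe sets had such groups. Of the 17, 8 were higher and 9 lower on average in KO arrays, beside 48.1% and 51.9% of all probe sets, and 12 differed by less than 0.1 log2 units. The half-width of the 95% confidence interval ran from 0.12 to 0.75 log2 units, so smaller differences could not be told from 0.

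**Figure D1:**
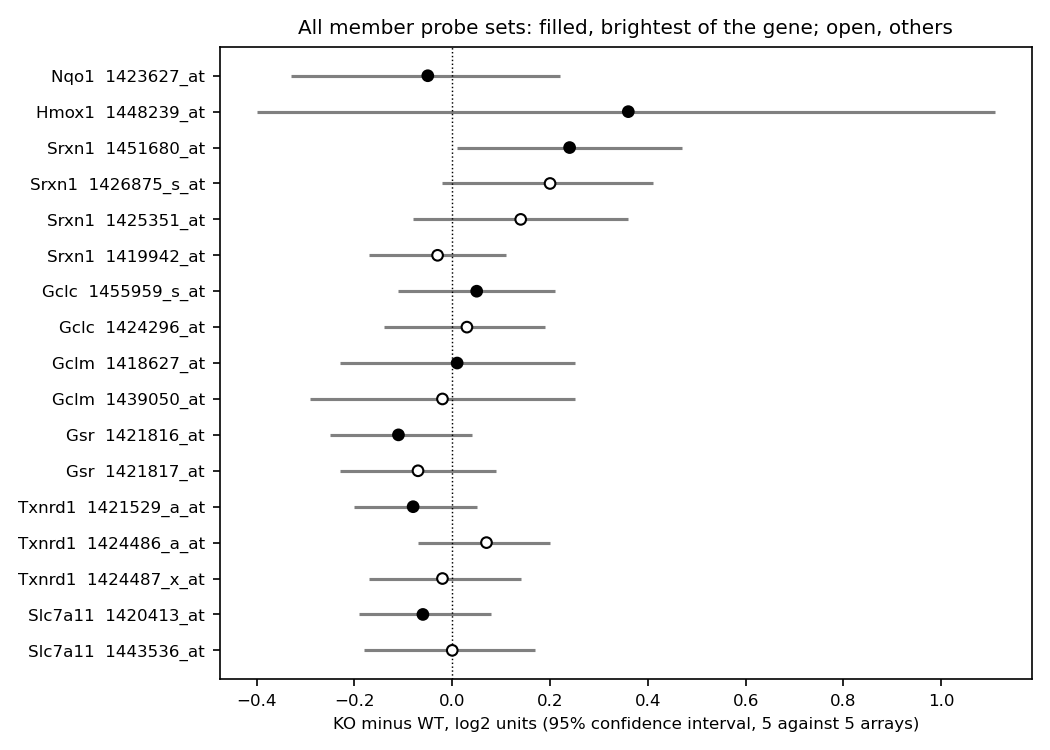
KO minus WT difference in log2 units (horizontal axis) for each of the 17 probe sets (rows), with 95% confidence intervals from limma over 5 against 5 arrays; filled points are the brightest probe set of a gene. The interval lies above 0 for 1 Srxn1 probe set before adjustment, and the Hmox1 interval is the widest, from -0.40 to 1.11.

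Glutathione is made by glutamate-cysteine ligase, whose catalytic subunit is encoded by Gclc and whose modifier subunit by Gclm. Both genes gave nearly equal group means. Gclc (1455959_s_at) gave 7.80, 7.97, 7.99, 8.01 and 7.99 in WT 1 to WT 5 and 7.84, 8.06, 7.92, 7.99 and 8.19 in KO 1 to KO 5. The groups overlapped almost entirely, with KO 5 highest and WT 1 lowest. The KO minus WT difference was 0.05 ± 0.073 log2 units (SE; 95% confidence interval -0.11 to 0.21; adjusted p of limma 0.948). The second Gclc probe set differed by 0.03 ± 0.074.

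Gclm (1418627_at) gave 8.44, 8.46, 8.59, 8.77 and 8.47 in WT arrays and 8.42, 8.75, 8.31, 8.42 and 8.86 in KO arrays. Its KO values spanned the WT range on both sides. The difference was 0.01 ± 0.11 (interval -0.23 to 0.25; adjusted p of limma 0.996), and that of its second probe set was -0.02 ± 0.12. The sign for Gclm turned when single arrays were left out.

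Slc7a11 encodes the cystine importer that supplies cysteine for glutathione. Both of its probe sets were dim in every array. The brighter one (1420413_at) lay between 3.31 and 3.47 in WT and between 3.20 and 3.41 in KO, and the other between 3.12 and 3.43 and between 3.09 and 3.46. These signals are below the 95th percentile of the means of 44 olfactory receptor probe sets (5.57), used as a reference for transcripts that fat is not expected to make. The differences of -0.06 ± 0.060 and -0.003 ± 0.079 therefore say little about the transcript.

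Gsr encodes glutathione reductase, which returns oxidised glutathione to its reduced form. Its signal was on average slightly lower in KO arrays. Gsr (1421816_at) gave 8.82, 8.62, 8.80, 8.60 and 8.57 in WT arrays and 8.53, 8.67, 8.54, 8.53 and 8.60 in KO arrays. All 5 KO values lay below the WT mean of 8.68, KO 2 and KO 5 lay within the WT range, and WT 1 and WT 3 stood above all other arrays. The difference was -0.11 ± 0.066 (interval -0.25 to 0.04; adjusted p of limma 0.899). The second probe set (1421817_at) differed by -0.07 ± 0.074. The first went to -0.07 without WT 1 and to -0.17 (unadjusted p of limma 0.038, adjusted 0.967) without WT 4 and WT 5, and the second to -0.03 without WT 1 or without KO 4 and to -0.15 without WT 4 and WT 5.

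Txnrd1 encodes the cytosolic thioredoxin reductase, a selenoenzyme that keeps thioredoxin reduced. The brightest of its 3 probe sets (1421529_a_at) gave 9.52, 9.42, 9.55, 9.58 and 9.60 in WT arrays and 9.37, 9.47, 9.45, 9.55 and 9.45 in KO arrays. KO values were below the WT mean in 4 of 5 arrays, and the ranges overlapped. The difference was -0.08 ± 0.056 (interval -0.20 to 0.05; adjusted p of limma 0.900). The probe sets of Txnrd1 did not move together. A second one (1424486_a_at) was higher in KO by 0.07 ± 0.063, with all 5 KO values above the WT mean, and its correlation with the first over the 10 arrays was -0.46. The third differed by -0.02 ± 0.071. All 3 carry suffixes of sets that can match several transcripts, and Txnrd1 has several transcript starts in RefSeq, so which transcripts each set reads was not tested.

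Srxn1 encodes sulfiredoxin, which reactivates over-oxidised peroxiredoxins. It was the member with the smallest p. Its brightest probe set (1451680_at) gave 8.37, 8.53, 8.54, 8.29 and 8.22 in WT arrays and 8.51, 8.63, 8.43, 8.99 and 8.59 in KO arrays. All 5 KO values lay above the WT mean of 8.39, KO 4 was highest and WT 4 and WT 5 were lowest, and KO 1 and KO 3 lay within the WT range. The difference was 0.24 ± 0.10 log2 units, or 1.18-fold (interval 0.01 to 0.47; unadjusted p of limma 0.0401, adjusted p 0.896), so it did not pass the test. It was 0.15 without KO 4 and 0.15 without WT 4 and WT 5.

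The probe sets of Srxn1 fell into a trio and a lone one. The sets 1426875_s_at and 1425351_at followed the brightest across the 10 arrays with r = 0.97 and 0.86, and differed between groups by 0.20 ± 0.098 and 0.14 ± 0.10. Without KO 4 these differences were 0.11 and 0.08, without WT 5 they were 0.16 and 0.06, and without WT 4 and WT 5 they were 0.12 and 0.04. The fourth (1419942_at), with a mean of 5.95, had r = -0.03 with the brightest and differed by -0.03 ± 0.064. KO 4 was the highest array in all 3 sets of the trio, at 8.99, 8.76 and 7.01. KO 4 also had the highest mean of the 14 immediate early and heat shock transcripts, at 9.64 against 8.07 to 9.33 in the other 9 arrays. Over the 10 arrays Srxn1 and that mean gave r = 0.64 (permutation p = 0.041, adjusted 0.44; rho = 0.43, permutation p = 0.22, adjusted 0.62), and r = 0.20 without KO 4 and WT 5.

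**Figure D2:**
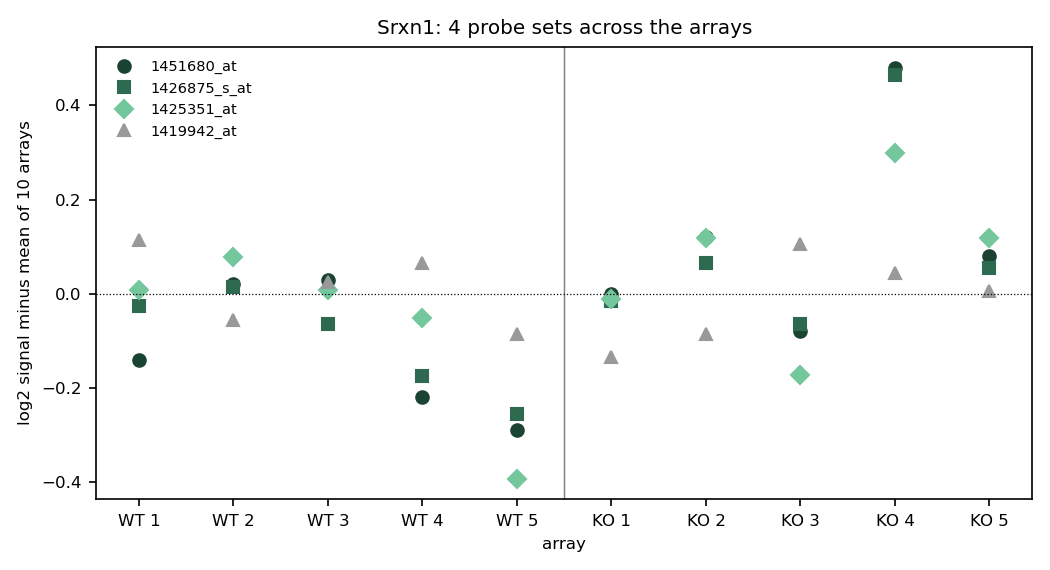
Log2 signal of each of the 4 Srxn1 probe sets minus its mean over the 10 arrays (vertical axis), for every array (horizontal axis; WT left, KO right). Circles, squares and diamonds move together, highest in KO 4 and lowest in WT 5; the triangles of 1419942_at do not follow them.

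With the skeletal muscle mean as a covariate the Srxn1 difference was 0.34 ± 0.081, with an adjusted p of limma of 0.476. The same fit gave unadjusted p values under 0.05 for all 3 sets of the trio, 0.0016, 0.0048 and 0.0046, and for no other member. Over the whole table that covariate raised the count of probe sets with an unadjusted p under 0.05 from 2444 to 3713, with 0 called after adjustment.

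Hmox1 encodes heme oxygenase 1, which breaks heme into biliverdin, carbon monoxide and iron, and is also expressed by macrophages that take up red cells. It was the member whose signal differed most from mouse to mouse. Hmox1 gave 6.53, 7.10, 7.13, 7.28 and 7.85 in WT 1 to WT 5 and 7.02, 6.76, 7.23, 7.91 and 8.75 in KO 1 to KO 5. KO 5 was highest and WT 1 lowest, a span of 4.64-fold, and all KO arrays other than KO 4 and KO 5 lay inside the WT range. The SD was 0.47 in WT and 0.80 in KO arrays, and 0.822% of all probe sets had a larger within-group SD. The difference was 0.36 ± 0.34 (interval -0.40 to 1.11; adjusted p of limma 0.919). With single arrays left out it ran from 0.05 (without KO 5) to 0.55 (without KO 2). Without WT 5, KO 1 and KO 3 together it was 0.80 ± 0.40, so its size depended on the arrays used.

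Macrophage markers were mostly lower on average in KO arrays. The mean of 13 macrophage transcripts was 7.05 to 7.47 in WT and 6.91 to 7.31 in KO arrays, and it was 7.31 in KO 5 and 7.01 in KO 4, the arrays highest in Hmox1. Over the 10 arrays Hmox1 and this mean gave r = 0.40 (permutation p = 0.25, adjusted 0.60; rho = 0.36, permutation p = 0.31, adjusted 0.62; r = 0.62 without KO 5 and KO 4). After each group's mean was subtracted, r was 0.61 (permutation p = 0.062, adjusted 0.32). Of these 13, 9 were lower on average in KO arrays, 0 passed the test and 2 had an unadjusted p under 0.05, where the share over all genes was 4.60%. They were Cd163, the hemoglobin scavenger receptor, at -0.73 ± 0.28, and Mrc1, the mannose receptor, at -0.25 ± 0.10. Of the 4 that were higher, Cd68 differed most, at 0.19 ± 0.22, with 7.64 in KO 5 against 6.17 to 6.74 in the other arrays. Lyz2, at 0.01 ± 0.17, was also highest in KO 5, at 9.99 against 9.08 to 9.67. The part of macrophages in the Hmox1 signal was not tested further. Itgam alone of the 13 lay below the olfactory reference, and no marker is listed at 0, since RMA gives every probe set a value.

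Nqo1 encodes a quinone reductase that is widely used as a readout of NRF2 activity. Its 1 probe set had a mean of 5.53, just below the olfactory reference of 5.57, so how far it lay above background is not known. It gave 5.52, 5.93, 5.62, 5.34 and 5.35 in WT arrays and 5.67, 5.70, 5.17, 5.43 and 5.52 in KO arrays. WT 2 was highest and KO 3 lowest, and the groups overlapped. The difference was -0.05 ± 0.13 (interval -0.33 to 0.22; adjusted p of limma 0.966), and its sign turned without WT 2, without KO 3 and with the muscle covariate.

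**Figure D3:**
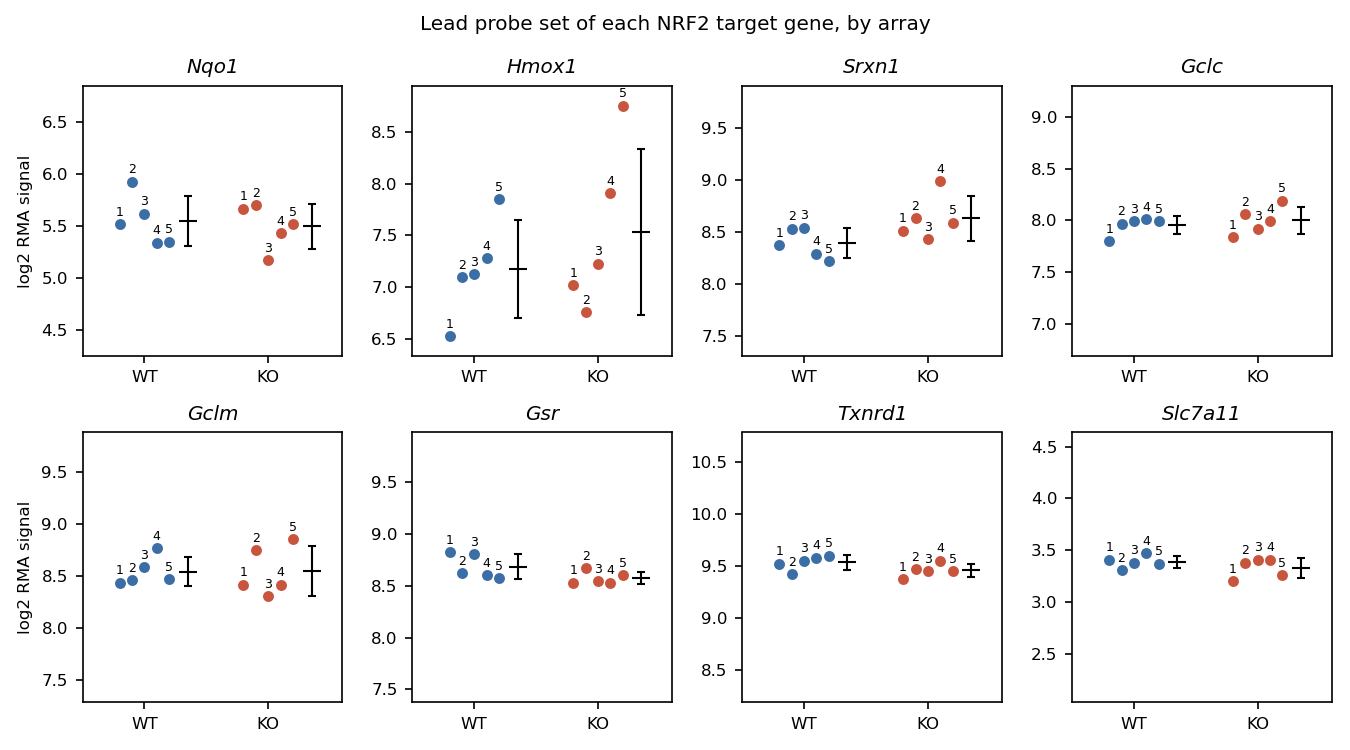
Log2 RMA signal (vertical axes, each spanning the same number of log2 units) of the brightest probe set of each of the 8 genes in WT (blue) and KO (red) arrays; numbers are the array numbers, and bars are mean and SD (n = 5). Hmox1 spreads from 6.53 to 8.75, while Txnrd1 stays between 9.37 and 9.60.

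The 8 genes did not vary as one group across the mice. Over the 28 pairs of genes, Pearson's r over the 10 arrays ran from -0.53 to 0.77 with a median of 0.12, and 16 pairs were positive. By permutation tests of r with 100000 resamples, 3 pairs had an unadjusted p under 0.05 and 0 had an adjusted p under 0.05 over the 28. The subunits Gclc and Gclm gave r = 0.77 (permutation p = 0.0057, adjusted 0.11) and Spearman's rho = 0.78 (permutation p = 0.010, adjusted 0.29), and r was 0.69 without KO 5 and WT 1. KO 5 was the highest array for both. Hmox1 and Gclc gave r = 0.72 (permutation p = 0.022, adjusted 0.20) and rho = 0.59 (permutation p = 0.080, adjusted 0.55). That r was 0.39 without KO 5 and KO 4, so the relation rests largely on those arrays. Txnrd1 and Slc7a11 gave r = 0.77 (permutation p = 0.0080, adjusted 0.11) and rho = 0.58 (permutation p = 0.088, adjusted 0.55), with r = 0.74 without KO 1 and WT 5, but Slc7a11 was at background.

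**Figure D4:**
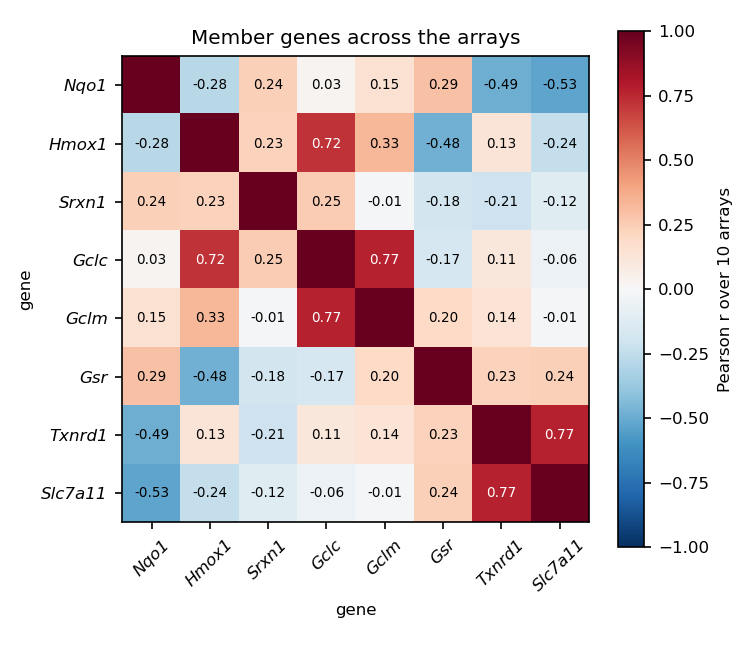
Pearson's r over 10 arrays between the brightest probe sets of the 8 genes (both axes; red positive, blue negative). The highest values are 0.77 for Gclc with Gclm and for Txnrd1 with Slc7a11 and 0.72 for Hmox1 with Gclc; the lowest is -0.53 for Nqo1 with Slc7a11.

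Each gene was also set against 4 lists, those of skeletal muscle, macrophage and brown adipocyte markers and of immediate early and heat shock transcripts. Of these 32 relations 0 had an adjusted p under 0.05 by permutation, for r, for rho or for r after each group's mean was subtracted. The smallest adjusted p was 0.44 for r, 0.31 for rho and 0.22 for r within groups. For r over all arrays 3 relations had an unadjusted p under 0.05, that of Srxn1 with the immediate early list given above and both of the following. Txnrd1 and brown adipocyte markers gave r = 0.72 (rho = 0.68; permutation p = 0.018 for r and 0.035 for rho, adjusted 0.44 and 0.31; r = 0.79 without KO 1 and WT 5), and r = 0.66 within groups. Txnrd1 and macrophage markers gave r = 0.66 (rho = 0.67; permutation p = 0.037 for r and 0.039 for rho, adjusted 0.44 and 0.31), which was 0.26 without KO 1 and WT 5.

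Within groups, 4 relations had an unadjusted p under 0.05, among them that of Txnrd1 with brown adipocyte markers. Srxn1 and skeletal muscle markers gave r = 0.78 within groups (permutation p = 0.0068, adjusted 0.22), against 0.38 over all arrays (permutation p = 0.28, adjusted 0.60; rho = 0.36, permutation p = 0.31, adjusted 0.62; r = 0.21 without KO 4 and WT 5). Gclc gave r = 0.74 with macrophage markers (permutation p = 0.016, adjusted 0.25) and -0.70 with the immediate early list (permutation p = 0.027, adjusted 0.29) within groups, against 0.54 and -0.42 over all arrays.

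The genes whose pattern over the 10 arrays was most like each member were taken from 9096 genes with signals above the median. They were Sash1 (r = 0.97) and Gnl3 (0.95) for Hmox1, Nop14 (0.97) and Gnai3 (0.96) for Gclc, and Khdrbs1 (0.96) and Fam8a1 (0.95) for Gclm. For Gsr they were Hif1an (0.95), an oxygen-dependent hydroxylase that acts on HIF1A, and Sod1 (0.95), the cytosolic superoxide dismutase. For Srxn1 they were Lrrfip1 (0.95) and Usp39 (0.94), for Nqo1 Tsn (0.92) and Cuedc1 (0.89), for Txnrd1 Cltc (0.89) and Ep300 (0.86), and for Slc7a11 Ern1 (0.88) and Nnmt (0.86). No member with a signal above that median was among the 2 genes most like another member. The highest of 9096 correlations over 10 arrays is large by selection, and these values are given as a description.

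The genes that control NRF2 gave no called difference. Nfe2l2 itself (1416543_at) gave 9.56, 9.52, 9.85, 9.96 and 9.90 in WT arrays and 9.77, 9.54, 9.85, 9.72 and 9.77 in KO arrays, with overlapping groups. Its difference was -0.03 ± 0.097 (interval -0.24 to 0.18; adjusted p of limma 0.979), and the sign turned without WT 4, without WT 5 or without KO 2. Keap1 differed by -0.11 ± 0.061 in 1 probe set and by -0.01 ± 0.071 in the other. Since NRF2 is controlled mainly through its protein, these transcript levels do not measure its activity.

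The small MAF partners and BACH1 were on average higher in KO arrays. Mafk gave 8.12, 8.34, 8.09, 8.15 and 8.20 in WT arrays and 8.28, 8.11, 8.53, 8.86 and 8.50 in KO arrays. KO 3, KO 4 and KO 5 lay above all WT arrays, and KO 1 and KO 2 did not. Its difference was 0.27 ± 0.12 (unadjusted p of limma 0.0389, adjusted 0.896). Maff differed by 0.46 ± 0.22 and the brightest Bach1 probe set by 0.23 ± 0.13, and KO 4 was again the highest array in both, at 8.49 and 8.53. Without KO 4 the differences were 0.17 for Mafk, 0.29 for Maff and 0.12 for Bach1. A second Bach1 probe set (1449311_at) differed by 0.17 ± 0.11. KO 4 was not its highest array, at 5.91 against 6.36 in KO 5 and 5.93 in WT 5. Of the 13 genes of the control list 7 were higher and 6 lower, 0 passed the test, and 1 had an unadjusted p under 0.05 against 4.60% of all genes. The median difference was 0.001, beside -0.013 over all 18193 genes.

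**Figure D5:**
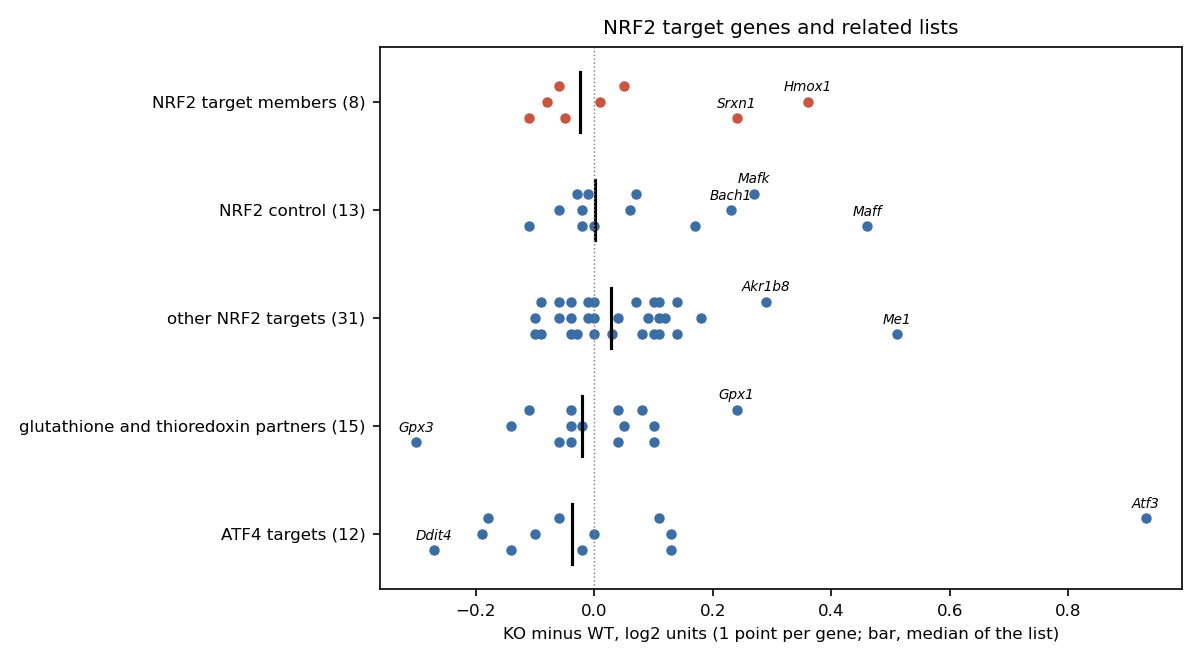
KO minus WT difference in log2 units (horizontal axis), 1 point per gene, for the 8 NRF2 target genes (red) and 4 related lists (blue); bars are list medians and the number of genes is in parentheses. The medians lie between -0.038 and 0.028, and the points far from 0 are single genes.

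A longer list of other NRF2 targets also gave no called difference. Of 31 measured genes 17 were higher and 14 lower in KO arrays, with a median of 0.028. None passed the test, and 1 of 31 (3.23%) had an unadjusted p under 0.05, where the share over all genes was 4.60%. This was Akr1b8, an aldo-keto reductase, at 0.29 ± 0.12. Akr1b8 gave 9.10, 9.28, 9.04, 8.82 and 8.53 in WT arrays and 9.29, 9.21, 9.27, 9.24 and 9.20 in KO arrays, so its KO values were nearly equal, while WT 4 and WT 5 were low. Me1, the malic enzyme that makes NADPH, differed by 0.51 ± 0.24, and WT 4 and WT 5 were its lowest arrays as well, at 11.71 and 11.84. Without WT 4 and WT 5 the differences were 0.10 for Akr1b8 and 0.11 for Me1. Blvrb, a biliverdin reductase, differed by 0.14 ± 0.075 and Cbr1, a carbonyl reductase, by -0.09 ± 0.061.

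Partners of the glutathione and thioredoxin systems had a median of -0.020, with 7 of 15 higher, 8 lower and 0 past the test. Gpx1, the cytosolic glutathione peroxidase, had the smallest p. By brightest probe sets it was the 1 gene of the 15 (6.67%) with an unadjusted p under 0.05, where the share over all genes was 4.60%. It gave 12.69, 12.82, 12.59, 12.41 and 12.34 in WT arrays and 12.71, 12.65, 12.95, 12.88 and 12.88 in KO arrays. WT 4 and WT 5 were lowest here too, and the difference went from 0.24 ± 0.097 to 0.11 without them. Gpx3, the secreted form, differed by -0.30 ± 0.22. It was 13.75 in WT 4 and 13.50 in WT 5, against 12.70 to 12.97 in the other WT arrays, and the difference was 0.004 without WT 4 and WT 5 and -0.53 with the muscle covariate. Gpx4, which removes lipid peroxides, differed by 0.08 ± 0.050, and Txnrd2, the mitochondrial thioredoxin reductase, by 0.10 ± 0.068 in its brightest probe set. The other Txnrd2 probe sets differed by 0.10 ± 0.077, 0.17 ± 0.078 (unadjusted p of limma 0.0458, adjusted 0.896) and 0.02 ± 0.078.

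ATF4 is the transcription factor of the amino acid response and also acts on Slc7a11. A list of Atf4 itself and its targets had a median of -0.038, with 4 of 12 higher, 8 lower and 0 past the test. Slc3a2 was counted both here and among the glutathione and thioredoxin partners. Of the 12, 2 (16.7%) had an unadjusted p under 0.05, where the share over all genes was 4.60%. Atf3, a transcription factor induced by stress that is also in the immediate early list, had a difference of 0.93 ± 0.20, and all its KO values, 7.41 to 8.29, lay above all WT values, 6.32 to 7.38 (adjusted p of limma 0.896; 0.627% of all genes had groups that did not overlap). Asns, asparagine synthetase, differed by -0.19 ± 0.085. Mthfd2, a mitochondrial folate enzyme, differed by 0.13 ± 0.067 and Trib3, a pseudokinase, by -0.10 ± 0.11. Over the 8 member genes themselves the median difference was -0.024, with 4 higher and 4 lower, beside 43.9% higher and 56.1% lower over all genes.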

How the data were processed

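The deposited table holds log2 signals of 45101 probe sets on 10 arrays, 1 column per array; per the submitters' processing notes the authors made them with RMA. The software and settings are not stated in the labels used here. RMA makes array distributions alike, so a shift common to most transcripts is lost; array medians lay between 5.58 and 5.61. The number of arrays limits the precision.

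After leaving out 64 control probe sets, KO minus WT differences were fitted over all 45037 others with lmFit and eBayes of limma 3.58.1 (R 4.3.3), two-sided, without covariates, and the Benjamini-Hochberg adjustment ran over the same probe sets (called: adjusted p under 0.05). Groups and array numbers come from the sample titles. Each array was taken as 1 mouse, since the protocol speaks of littermates. Genes come from the platform annotation: 34945 probe sets had 1 gene, 932 several and 9160 none, and 34741 matched RefSeq (GRCm38.p6) by gene ID. For gene lists, the probe set with the brightest mean stands for its gene (18193 genes). In lists, 3 of 34 other NRF2 targets, 3 of 18 partners and 1 of 9 members had no probe set of their own.

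Named genes are the members, Nfe2l2, Keap1, Bach1, Sirt3, the 4 genes with the smallest unadjusted p of each related list, a few markers, and the 2 genes most like each member. Members and lists were chosen with earlier results of these data known. Endothelial markers (8 of 10 higher, median 0.11) and red blood cell markers (3 measured of 6, median 0.02) were also examined, with 0 called. Permutations were drawn with numpy in Python 3.11.15, ranks for Spearman's rho used scipy 1.17.1, and figures used matplotlib 3.10.9. Alternatives are given in the closing section. On simulated data for 45037 probe sets in 5 against 5 arrays, the fit called 64% of 100 features changed by 0.5 log2 units and 97% of 100 changed by 1, with 4 false calls among 165; noise was independent between features, so these shares check the fit only.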

Additional observations from a re-analysis of the deposited data

Results flagged for a closer look

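In groups of 5 arrays, single values stood apart from the other 4 in 4 of the 70 groups examined, where chance gives about 1 in 20. Srxn1 (1426875_s_at) was 8.76 in KO 4, against 8.23 to 8.36 in the other KO arrays. Srxn1 (1425351_at) was 6.32 in WT 5, against 6.66 to 6.79 in the other WT arrays. Gclc (1455959_s_at) was 7.80 in WT 1, against 7.97 to 8.01. Keap1 (1450746_at) was 8.50 in KO 2, against 8.29 to 8.34.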

How the results depend on the processing

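No member probe set was called in any of the 22 alternatives, and the smallest adjusted p of one over alternatives on the whole table was 0.476 (Srxn1 with the muscle covariate). Of the 26 genes followed, none was called under any alternative; 22 kept their sign, among them 6 of the 8 members. The count of probe sets called over the whole table was 0 to 1 when single arrays were left out, the 1 being Ptprb (0.65 ± 0.061) without WT 2. The count at an unadjusted p under 0.05 was 2444, and it was 3713 with the muscle covariate, 1311 without dim probe sets, 851 with 1 probe set per gene, 889 with probe sets averaged per gene and 791 without sets named _s_at, _x_at or _a_at, the last 4 with fewer features tested; without single arrays it ran from 1911 to 3590. Signs turned for Nqo1 with the muscle covariate (0.023) and between -0.11 and 0.039 without single arrays, for Gclm with the mean of its probe sets (-0.0055) and between -0.07 and 0.066 without single arrays, for Gpx3 (0.004) and Nfe2l2 (0.088) without WT 4 and WT 5, and for Nfe2l2 between -0.088 and 0.022 without single arrays; the cause was not tested. The median difference over the members went from -0.056 to 0.046 without single arrays. The per-array median over the member genes, a different measure, had a spread of 0.15. With the replicate number as a block, 0 members were called and 2153 probe sets had an unadjusted p under 0.05. That fit gave Hmox1 an unadjusted p of limma of 0.058 (adjusted 0.937), against 0.322 in the main fit. Hmox1 was highest in array 5 of each group, at 7.85 in WT 5 and 8.75 in KO 5. Arrays of the same number had correlations of deviations from the group means of -0.09, 0.14, -0.28, -0.22 and 0.07. Over the whole table these gave no sign of a pairing by number, but 5 values cannot exclude one. Dim signals limit Slc7a11 and Nqo1.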
